A study of Capsella rubella with 6 samples.

Results

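Genomic imprinting is the expression of a gene mainly from the copy inherited from one parent. In flowering plants it is known chiefly from the endosperm, the seed tissue that nourishes the embryo and holds 2 maternal genomes for 1 paternal genome. In Arabidopsis thaliana, many paternally expressed genes carry repressive Polycomb marks on the maternal copy, and imprinting of some genes is known to differ between accessions. The 20 genes described here gave reads mostly from the paternal copy in one direction of a cross between accessions of Capsella rubella, a self-fertilising relative of Arabidopsis, and a maternal share near the 2 to 1 dosage in the other direction. They were chosen on those shares. Each had at least 20 allelic reads in each of 4 libraries, a maternal share of at most 50% in both libraries of one cross, and a share of 60% to 75% in both libraries of the other cross. Of 6990 genes with enough reads, among 12641 with a single nucleotide polymorphism (SNP) between the accessions, 13 were paternal in Cr A x Cr B only and 7 were paternal in Cr B x Cr A only. The shares that chose the genes are given below as a description, without a test.

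Cr A is the accession Cr48.21 and Cr B the accession Cr75.2. Both crosses were made on emasculated flowers pollinated by hand after 2 days, and endosperm was dissected at 6 days after pollination from 300 to 500 seeds pooled per replicate. Each direction had 2 libraries. No label states that different plants were used for them, so a p-value here reflects only the spread between pools. Which partner served as the female is not stated. Names were read as female x male. On the opposite reading each statement about an accession's allele would apply to the other accession. The 4 libraries held 8122586 to 11702084 allelic reads, and the median maternal share per gene lay between 67.8% and 72.2%, against 66.7% for 2 to 1. Genes are given by their interval (scaffold, start, end) and strand in the deposited tables, on a genome build not given in the sources used here. The intervals carry no gene names, so the genes' functions are not described, and markers of endosperm, seed coat and embryo could not be located to check the dissected tissue. In these bulk samples fewer cells of a type and less RNA per cell cannot be told apart.

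The 20 genes were a small share of the genes with paternal excess in one direction. In Cr A x Cr B, 308 of 6990 genes (4.41%) had a maternal share of at most 50% in both libraries. Of these 308 genes, 50 (16.2%) were also at or under 50% in both libraries of the other cross, 179 (58.1%) were above 75% there and 13 (4.22%) had 60% to 75%. For Cr B x Cr A, 214 genes (3.06%) were at or under 50%, and 50 (23.4%), 116 (54.2%) and 7 (3.27%) of them fell in the same 3 classes of the other cross. For a gene with one fixed ratio between its Cr A and Cr B copies and 2 maternal copies to 1 paternal, a maternal share of 50% in one cross corresponds to 80% in the other. The rule's bound of 75% sets the 20 genes below that value in the cross where they were not paternal. Nothing is read from this position.

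The 13 genes paternal in Cr A x Cr B had mean maternal shares of 23.7% to 45.1% in that cross, with a median of 30.2%. In Cr B x Cr A the same genes stood at 61.4% to 71.5%, with a median of 65.1%. The mean shares of the crosses differed by 16.3 to 43.4 percentage points. Exact binomial intervals at 95% cover counting error only, and they are too narrow where a read is counted at more than 1 SNP. They lay wholly below 66.7% in all 26 library values of the paternal cross and wholly below 50% in 21 of them. In the other cross 20 of 26 intervals held 66.7%. From the deepest SNP of each gene alone, where a read counts once, these counts were 24, 20 and 20. The 7 genes paternal in Cr B x Cr A had mean shares of 5.52% to 45.4% there (median 37.8%) and 61.4% to 72.7% in Cr A x Cr B (median 66.4%), a difference of 17.1 to 55.9 points. For these 7 genes all 14 intervals of the paternal cross lay below 66.7%, 9 lay below 50%, and 9 of 14 in the other cross held 66.7%, or 14, 6 and 13 from the deepest SNP alone. Both intervals of the paternal cross lay below 50% in 9 of the 13 genes and in 2 of the 7. The rule sets the direction of the differences and bounds the shares in both crosses. The interval counts therefore describe the genes and test nothing, and no such counts over all genes are given beside them. Over all 6990 genes, the libraries of Cr A x Cr B both lay under those of Cr B x Cr A in 37.4% and the reverse held in 23.1%, and nothing is read from the same count in the chosen genes.

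**Figure D1:**
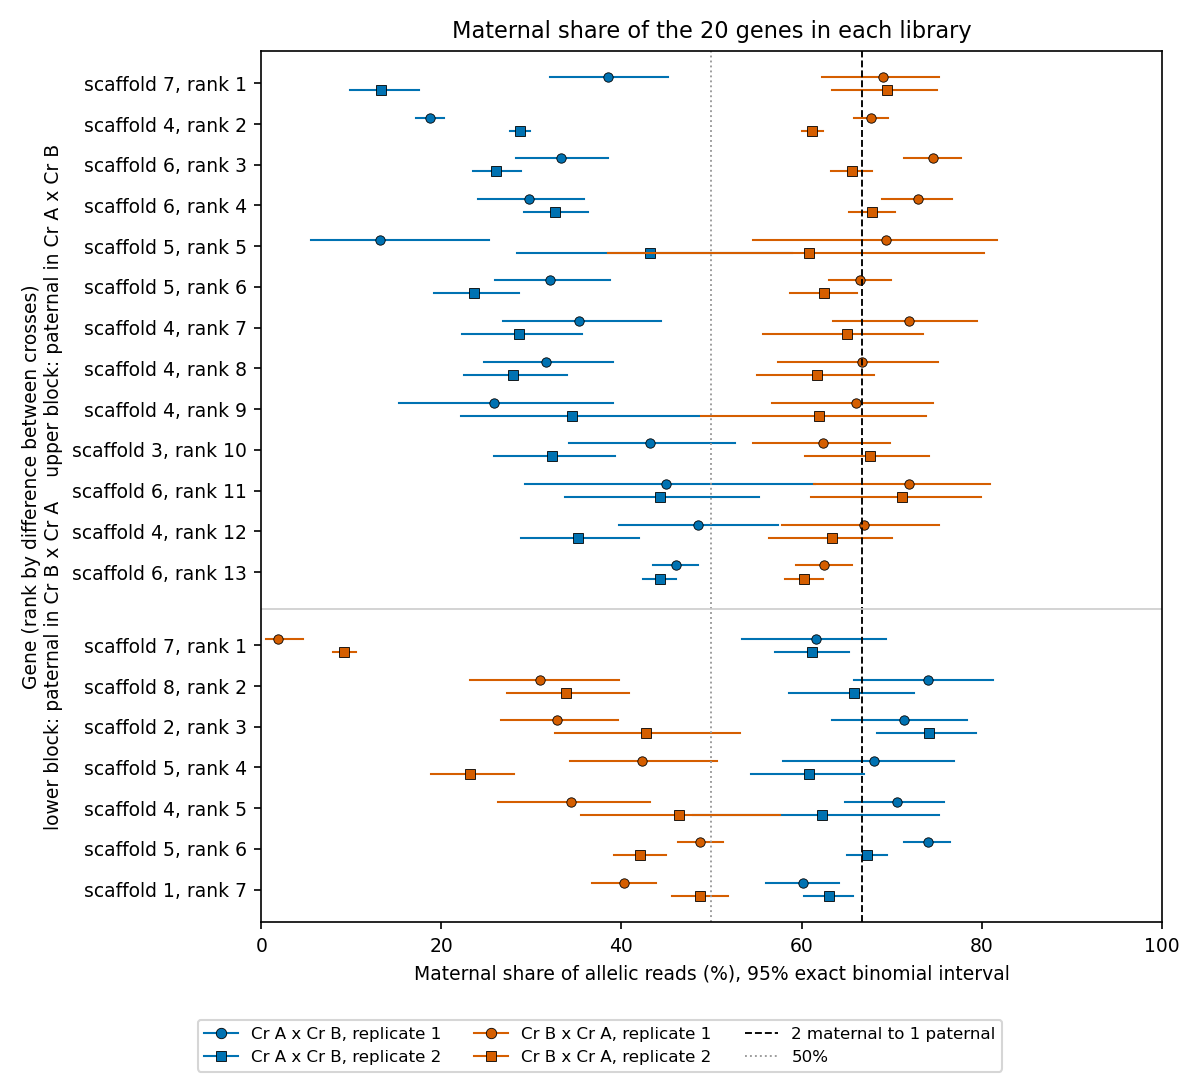
Maternal share of allelic reads (%) of the 20 genes in each of the 4 libraries. Points are libraries, bars are 95% exact binomial intervals, the dashed line is 66.7% and the dotted line 50%. Genes are labelled by scaffold and by their rank in the difference between the crosses within each block, and the rank 1 gene of the lower block stands apart at 1.83% and 9.21% in Cr B x Cr A.

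Among the genes paternal in Cr A x Cr B, the gene on scaffold 4 at 11068075 to 11070374 (plus strand, rank 2) had the most reads, 18939 over the 4 libraries at 5 SNPs, of which 4 lie in listed exons. Its maternal share was 18.7% (468 of 2499 reads) and 28.8% (1953 of 6793) in Cr A x Cr B. It was 67.8% (1664 of 2456) and 61.2% (4401 of 7191) in Cr B x Cr A. The mean shares were 23.7% ± 7.09 and 64.5% ± 4.63 (SD, n = 2). Next in reads came the gene on scaffold 6 at 6435845 to 6438514 (plus strand, rank 13), with 7558 reads at a single exon SNP and the smallest difference of the 13 genes. It stood at 46.0% and 44.2% in Cr A x Cr B and at 62.5% and 60.3% in the reverse cross. Both of its intervals in Cr B x Cr A lay below 66.7%.

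The scaffold 6 gene at 16399841 to 16403114 (plus strand, rank 3) carried 22 SNPs, the most of the 13 genes, with 15 in listed exons. Its maternal share was 33.2% and 26.1% in Cr A x Cr B and 74.6% and 65.6% in Cr B x Cr A. A second gene on scaffold 6, at 6852819 to 6854128 (plus strand, rank 4, 6 exon SNPs), stood at 29.7% and 32.7% and then at 73.0% and 67.9%. In the first of these genes replicate 1 had the higher share in both crosses, and in the second it did so in Cr B x Cr A. On scaffold 5, the gene at 8967209 to 8969619 (minus strand, rank 6, 10 SNPs) had shares of 32.1% and 23.7%, against 66.5% and 62.5%.

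The gene on scaffold 7 at 6970504 to 6977030 (plus strand, rank 1) had the largest difference of the 13, 43.4 points, and also a wide spread between replicates. Its share was 38.5% (85 of 221 reads) and 13.4% (43 of 322) in Cr A x Cr B, a mean of 25.9% ± 17.8 (SD, n = 2). The reverse cross gave 69.1% and 69.4%. Its 2 exon SNPs lie side by side, so the same reads largely cover both. At the deeper SNP alone the intervals of the Cr A x Cr B replicates, 30.2% to 49.0% (44 of 112 reads) and 8.71% to 19.8% (22 of 162), did not overlap.

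Another 3 genes with full values lie on scaffold 4. The gene at 3823335 to 3825182 (plus strand, rank 7, 5 exon SNPs) stood at 35.2% and 28.6% in Cr A x Cr B, against 72% and 65.0% in the reverse cross. The gene at 1978943 to 1981224 (plus strand, rank 8, 13 exon SNPs) had 31.6% and 28.0%, then 66.7% and 61.7%. In each of them all 4 libraries had at least 117 reads, summed over SNPs. At the deepest SNP of the rank 8 gene alone, with 24 to 70 reads a library, the shares were 70.8% and 30% in Cr A x Cr B. In the reverse cross they were 51.5% and 56.9%, so replicate 1 of Cr A x Cr B was not paternal at that SNP. The gene at 10859149 to 10861176 (minus strand, rank 9, 2 exon SNPs) rested on 55 to 115 reads a library and gave 25.9% and 34.5% against 66.1% and 61.9%.

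The remaining 4 of the 13 genes are outside the rule for genes described in full, and their values are given to account for each one. The gene on scaffold 5 at 2404736 to 2408454 (plus strand, rank 5) had 13.2% and 43.2% in Cr A x Cr B and 69.4% and 60.9% in Cr B x Cr A. It had the fewest reads of all, 23 to 53 a library, and none of its 3 SNPs lies in a listed exon. On scaffold 3, the gene at 4388936 to 4392797 (plus strand, rank 10) stood at 43.2% and 32.3% against 62.4% and 67.6%. At its deepest SNP alone the shares were 62.3% (38 of 61 reads) and 43.4% against 62.9% and 57.4%, so replicate 1 of Cr A x Cr B was not paternal there. The scaffold 6 gene at 15578402 to 15581731 (minus strand, rank 11), with a single SNP and 40 to 97 reads, stood at 45% and 44.3% against 71.9% and 71.1%. The gene on scaffold 4 at 9130629 to 9132483 (minus strand, rank 12) stood at 48.5% and 35.2% against 66.9% and 63.4%. In each of these 4 genes at least 1 interval in Cr A x Cr B reached past 50%.

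The most paternal of the 20 genes was one of the 7 paternal in Cr B x Cr A, on scaffold 7 at 16769192 to 16771139 (minus strand, rank 1). Its maternal copy gave 4 of 219 reads (1.83%, interval 0.5% to 4.61%) and 180 of 1955 (9.21%, interval 7.96% to 10.6%) in Cr B x Cr A. In Cr A x Cr B the maternal share was 61.6% (93 of 151) and 61.2% (342 of 559). Reads lay at 11 SNPs, 10 of them in listed exons. The level per library, in reads scaled to 1000000 allelic reads in genes (RPM), was uneven. The paternal copy stood at 24.4 and 163 RPM in Cr B x Cr A and at 7.68 and 19.9 RPM in Cr A x Cr B, and the maternal copy at 0.453 and 16.6 RPM and at 12.3 and 31.3 RPM. In both crosses replicate 2 had the higher level of both copies.

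The scaffold 8 gene at 9890837 to 9896016 (minus strand, rank 2) carried 24 SNPs, the most of the 20 genes. Its share was 31.0% and 33.8% in Cr B x Cr A and 74.1% and 65.8% in Cr A x Cr B. The gene on scaffold 2 at 2768161 to 2770410 (minus strand, rank 3, 7 exon SNPs) stood at 32.9% and 42.7%, against 71.3% and 74.1%. It is one of 2 genes of the 7, with the scaffold 5 gene of rank 6, in which both libraries of the other cross lay above 66.7%. The gene on scaffold 5 at 6786788 to 6789661 (plus strand, rank 4, 1 exon SNP) had 42.3% and 23.2%, against 68.0% and 60.8%, and its Cr B x Cr A intervals of 34.2% to 50.6% and 18.8% to 28.1% did not overlap.

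A gene on scaffold 4 at 13001122 to 13002521 (minus strand, rank 5, 2 SNPs) stood at 34.4% and 46.4% in Cr B x Cr A and at 70.5% and 62.3% in Cr A x Cr B. On scaffold 5, the gene at 6304349 to 6307622 (plus strand, rank 6, 14 SNPs) had 5722 reads, the most of the 7. It stood at 48.8% and 42.1% against 74.0% and 67.3%, so replicate 1 lay near a bound in both crosses. At its deepest SNP alone the shares were 50.8% (199 of 392 reads) and 49.2% (124 of 252), against 77.6% and 66.4%. Replicate 1 was thus outside the bounds in both crosses at that SNP. The gene on scaffold 1 at 15987446 to 15990288 (minus strand, rank 7, 15 exon SNPs) had 40.2% and 48.7% against 60.1% and 63.0%. Summed over SNPs, both of its intervals in Cr A x Cr B also lay below 66.7%, and its maternal share was under 2 to 1 in all 4 libraries. At its deepest SNP alone the Cr A x Cr B shares were 62.3% (66 of 106 reads) and 70.5% (105 of 149). Their intervals, 52.3% to 71.5% and 62.5% to 77.7%, both held 66.7%, so that reading did not hold there.

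Several genes sat close to the bounds. For the genes paternal in Cr A x Cr B, the value nearest the 50% bound was 48.5% inside and 50.9% outside, nearest 60% it was 60.3% inside and 58.6% outside, and nearest 75% it was 74.6% inside and 76.1% outside. For those paternal in Cr B x Cr A the values were 48.8% and 52.0%, then 60.1% and 58.5%, then 74.1% and 75.7%. These gaps are smaller than most of the intervals of single libraries.

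Read by accession, the same allele gave most reads in both directions. The Cr B allele gave a mean of 54.9% to 76.3% of reads in the 13 genes over both crosses, with medians of 69.8% in Cr A x Cr B, where it came from the father, and 65.1% in Cr B x Cr A, where it came from the mother. Over all 6990 genes those medians were 31.5% and 70.8%. In the 7 genes the Cr A allele gave 54.6% to 94.5%, with medians of 66.4% when maternal and 62.2% when paternal. The rule itself requires the majority allele to be the same in both directions, and so nothing is read from it. The 4 Cr B shares spanned 15 points or fewer in 8 of the 13 genes and in 2 of the 7. The narrowest span was 5.63 points, in the scaffold 6 gene of rank 4, and the widest was 37.0 points, in the scaffold 7 gene paternal in Cr B x Cr A.

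**Figure D2:**
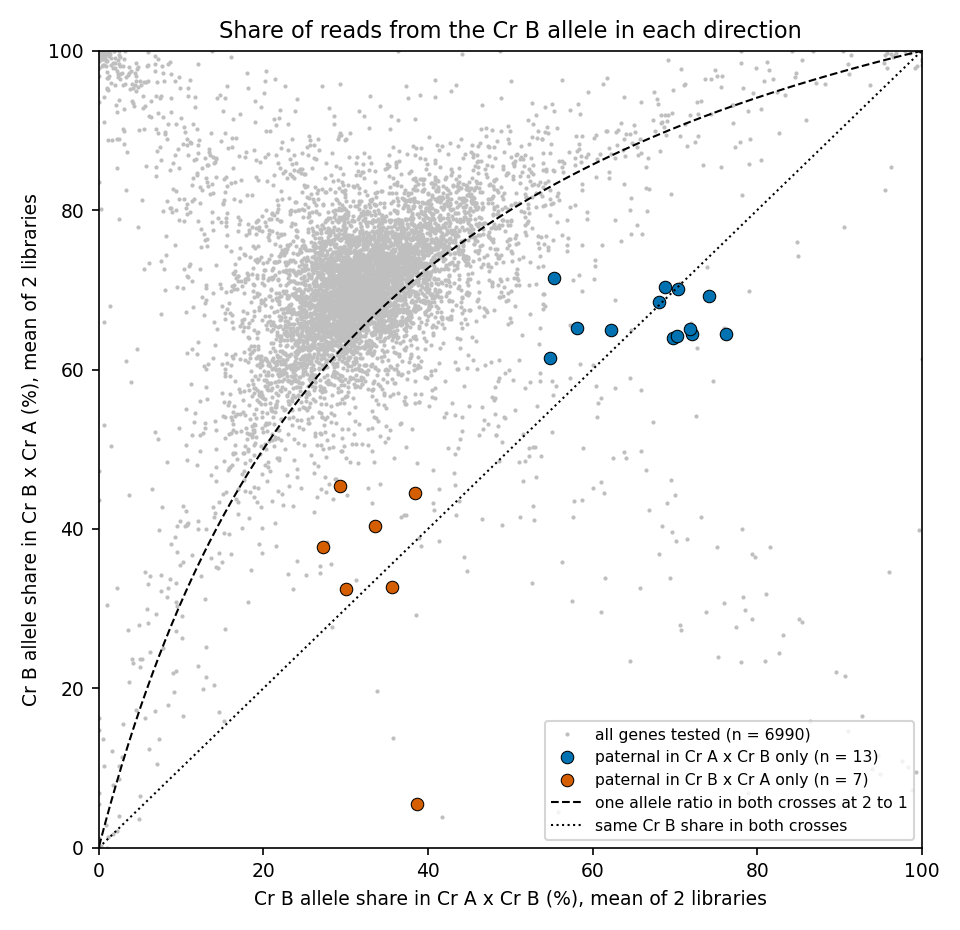
Share of reads from the Cr B allele (%), each the mean of 2 libraries, with Cr A x Cr B on the horizontal axis and Cr B x Cr A on the vertical axis. Grey points are all 6990 genes, the dashed curve is one allele ratio in both crosses at 2 maternal to 1 paternal, and the dotted line an equal share in both. All 20 coloured genes lie below and to the right of the curve, 13 at Cr B shares above 50% in both crosses and 7 below 50% in both. The rule that chose the genes requires these positions.

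The level of one allele can be compared between the crosses, where it is inherited from the mother in one and from the father in the other. For an average gene the ratio was near the dosage: the median over 6990 genes was 2.29 for the Cr A allele and 2.29 for the Cr B allele, maternal over paternal, in mean RPM. In the 13 genes the median ratio was 1.06 for the Cr A allele and 0.968 for the Cr B allele. In the 7 genes it was 1.24 and 1.01. The log2 ratio ran from -1.65 to 0.84 for Cr A and from -0.71 to 1.15 for Cr B in the 13 genes, and from -2.10 to 1.05 and from -0.70 to 0.53 in the 7. The shares that chose the genes limit these ratios, so they describe the genes and test nothing.

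In the scaffold 4 gene of rank 2 both alleles were lower from the mother. Its Cr A allele stood at 62.0 and 179 RPM when maternal and at 89.7 and 257 RPM when paternal, and its Cr B allele at 188 and 405 RPM and at 269 and 443 RPM. Replicate 2 was higher for each allele and parent, and the ranges of the maternal and the paternal copy overlapped. In the scaffold 5 gene of rank 6 among the 13, the alleles went opposite ways. Its Cr A allele stood at 9.27 and 7.24 RPM when maternal and 28.7 and 23.1 RPM when paternal, and its Cr B allele at 57.0 and 38.5 RPM when maternal and 19.6 and 23.4 RPM when paternal. Neither pair overlapped, and both alleles were higher in Cr B x Cr A.

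**Figure D3:**
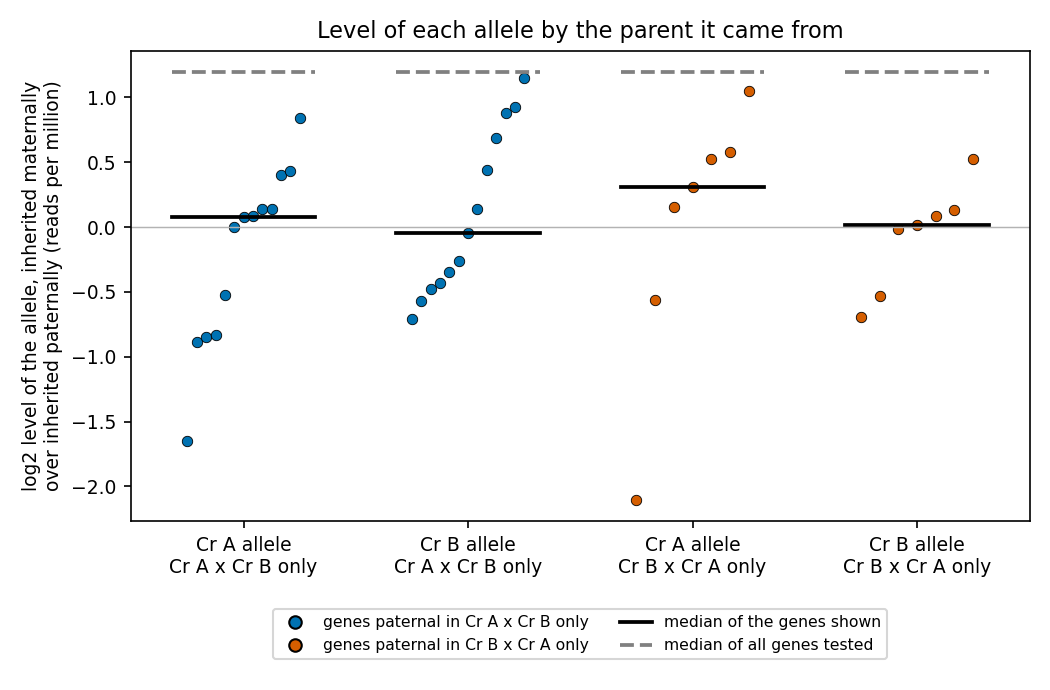
Log2 ratio of the mean level (RPM) of each allele when inherited from the mother over its level when inherited from the father, for the 13 and the 7 genes. Points are genes, black bars their medians (0.08 and -0.05, then 0.31 and 0.01) and grey dashed bars the medians of all genes tested (1.19 for both alleles).

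Total expression, the sum of reads from both alleles, was not used to choose the genes beyond the read minimum. None of the 20 genes differed between the crosses in total expression by edgeR's quasi-likelihood test, in which 0 of 9040 genes (0%) had an adjusted p under 0.05, the smallest adjusted p being 0.402. At an unadjusted p under 0.05 edgeR listed 123 genes (1.36%), 1 of them among the 20. DESeq2 called 24 of 10188 genes (0.236%) and none of the 20. The one gene was that of rank 6 among the 13, on scaffold 5. Its total level was 28.9 and 30.6 RPM in Cr A x Cr B and 85.6 and 61.6 RPM in Cr B x Cr A. These values did not overlap, and the fitted log2 difference, Cr B x Cr A over Cr A x Cr B, was 1.32 ± 0.48 (SE), with an unadjusted p of 0.0341 and an adjusted p of 1.00 by edgeR.

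Over the 13 genes the median log2 difference in total level was -0.05 (range -0.66 to 1.32), over the 7 genes -0.12 (range -0.88 to 1.46), and over all genes tested 0.04. The Cr B x Cr A libraries were the 2 higher ones in 2 of the 13 genes and the 2 lower ones in 4, against 13.3% and 11.6% of all genes, and in none of the 7 genes either way. The highest fitted value, 1.46 ± 0.94 (SE, unadjusted p = 0.174 by edgeR), belonged to the scaffold 7 gene paternal in Cr B x Cr A. Its levels of 20.0 and 51.2 RPM in Cr A x Cr B and 24.8 and 180 RPM in Cr B x Cr A overlapped. With 2 libraries against 2 the smallest p of an exact two-sided permutation test is 0.333, so single values were not tested that way. The median total level was 20.0 RPM in the 13 genes and 20.9 RPM in the 7, against 42.2 RPM for all 6990 genes, and 8 of the 20 stood above that value. The median of the fewest reads in a library was 121 and 129, against 221.

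A fit over all genes held a term for the parent of an allele and a term for its accession, against the null of 2 maternal to 1 paternal. The accession term is also the difference in parental ratio between the crosses, so the fit cannot tell these apart. The fit uses the contrast that chose the genes, so the values are a description. By edgeR 6 of the 13 and 2 of the 7 were called less maternal than 2 to 1, against 1.71% of 8597 genes, and none was called more maternal, against 5.72%. The Cr B allele was called higher in 8 of the 13, against 9.34% of genes, and the Cr A allele in 4 of the 7, against 5.09%. The median parental term was -1.01 (log2) in the 13 genes, -0.82 in the 7 and 0.19 over all genes. The median accession term, Cr A over Cr B, was -1.11, 0.97 and -0.08. The scaffold 7 gene paternal in Cr B x Cr A had the largest terms, -2.63 ± 0.30 (SE) for the parent and 2.30 ± 0.30 for the accession. Over all genes DESeq2 called 174 of 8597 less maternal, against 147 by edgeR. DESeq2 called 13 of the 20 genes less maternal, against 8 by edgeR, and with 1 library left out edgeR called 4 to 8. The lowest count, 4, came without replicate 2 of Cr A x Cr B, and leaving out replicate 1 of Cr A x Cr B or replicate 2 of Cr B x Cr A gave 5 each. With 1 library left out the accession counts were 4 to 6 of the 13, lowest without replicate 2 of Cr A x Cr B or replicate 1 of Cr B x Cr A, and 1 to 3 of the 7. Of the 7 it was 1 without replicate 1 of Cr A x Cr B and 2 without replicate 2 of either cross.

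In the authors' deposited table, all 13 and all 7 genes had a gene p-value under 0.05 with a maternal ratio under 0.5 in both replicates of their paternal cross, as did 13.4% and 8.37% of all genes. Their ratio divides maternal reads by 2 first, so 0.5 there stands for 2 to 1. Of these genes, 8 of the 13 and 3 of the 7 also had p-values of 0.05 or more in both replicates of the other cross in the authors' deposited table, against 0.458% and 0.386% of all genes. The paternal shares chose the genes, so nothing is read from these counts.

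Because all 4 libraries chose the 20 genes, the choice was also made on replicate 1 alone and read in replicate 2. In replicate 1, 137 genes met the rule as paternal in Cr A x Cr B, and 13 of them (9.49%) met it in replicate 2, against 0.744% of all genes. The median difference between the crosses in these 137 genes went from 26.9 points in replicate 1, where it was chosen, to 14.1 points in replicate 2, where it was 4.15 points over all genes. For Cr B x Cr A, 7 of 102 genes (6.86%) met the rule again, against 0.773% of all genes. Their median difference went from 26.2 points to 4.70 points, with -4.15 points over all genes. Chosen on replicate 2 and read in replicate 1, 13 of 52 genes (25.0%) and 7 of 54 (13.0%) met the rule, against 1.96% and 1.46% of all genes. The median differences of the 52 and the 54 genes were 18.2 and 14.9 points, with 0.09 and -0.09 points over all genes. The larger part of the genes chosen on a single replicate thus fell outside the bounds in the other, and the difference in the reading replicate was smaller than in the choosing one in each case. Genes that met the rule in both replicates are by construction the 13 and the 7, so the pass counts give no separate support for them.

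**Figure D4:**
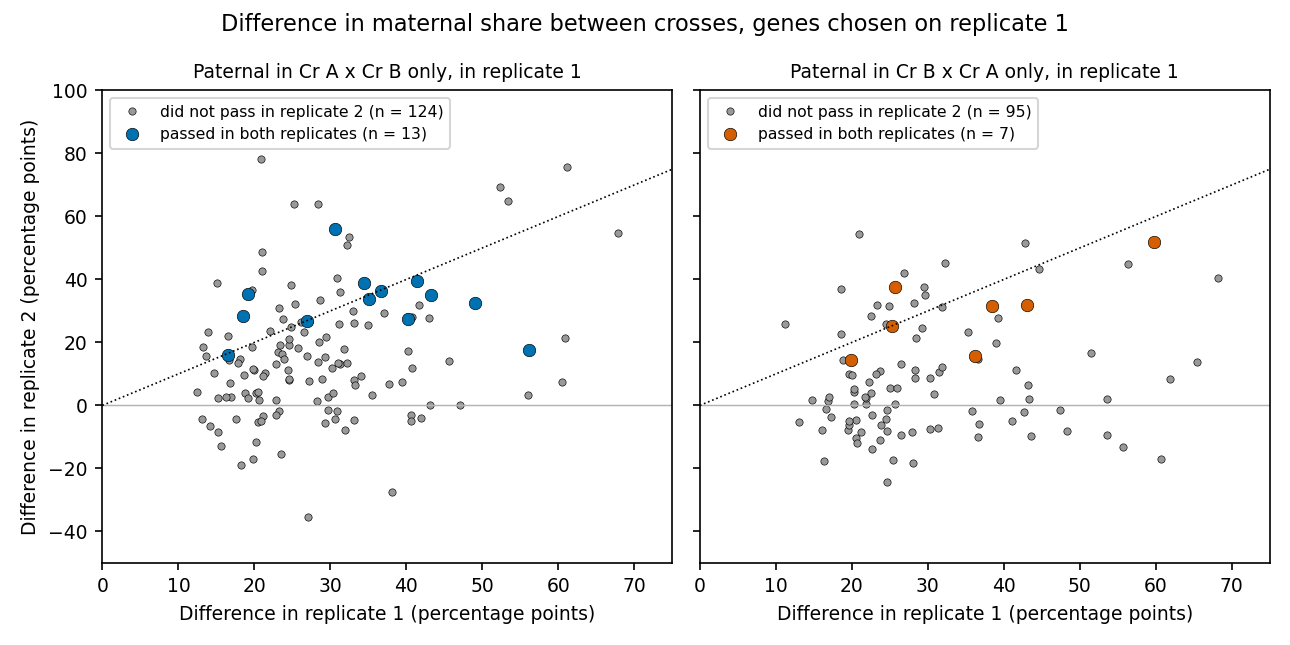
Difference in maternal share between the crosses (percentage points, other cross minus paternal cross) in replicate 2 against replicate 1, for genes that met the rule in replicate 1. Each point is a gene, coloured points are the 13 and 7 that met the rule in both replicates, and the dotted line marks equal differences. Most grey points lie below the line, with medians over all genes shown of 14.1 points (left) and 4.70 points (right) in replicate 2.

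The SNPs of a gene can be read one by one, though a read may cover several. Among SNPs with at least 20 reads in each cross, 55 of 56 in the 13 genes and 40 of 45 in the 7 showed the difference between the crosses in the direction of their gene. A gene's direction is the sum of its own SNPs and was set by the rule, so these counts describe the genes and test nothing. They include genes with only 1 such SNP, which cannot disagree with its gene. All SNPs went with the gene in 10 of the 11 genes with more than 1 such SNP among the 13, and in 4 of 5 among the 7. In the scaffold 6 gene of rank 3 all 14 SNPs differed by 22.7 to 54.9 points, and in the scaffold 5 gene of rank 6 among the 7 all 10 differed by 14.2 to 46.5 points. The exception among the 13 was the scaffold 4 gene of rank 7. At its SNP 416 bp from the 5′ end the maternal share was 56.0% of 50 reads in Cr A x Cr B and 33.3% of 57 reads in Cr B x Cr A, against differences of 29.4 to 66.3 points the other way at its other 4 SNPs.

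The exception among the 7 was the scaffold 1 gene, in which 5 of 15 SNPs went against the gene, from -46.3 to 77.3 points. The SNPs 145, 151 and 193 bp from its 5′ end had maternal shares of 85.4%, 80.9% and 66.0% in Cr B x Cr A and 44.4%, 48.1% and 42.3% in Cr A x Cr B. At 2447 bp the shares were 12.5% in Cr B x Cr A and 89.8% in Cr A x Cr B, and at 2720 bp they were 75.8% and 29.5%. The gene's summed share is thus an average over SNPs that differ in direction, on 41 to 255 reads per SNP and cross. The cause of the opposite directions was not tested.

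**Figure D5:**
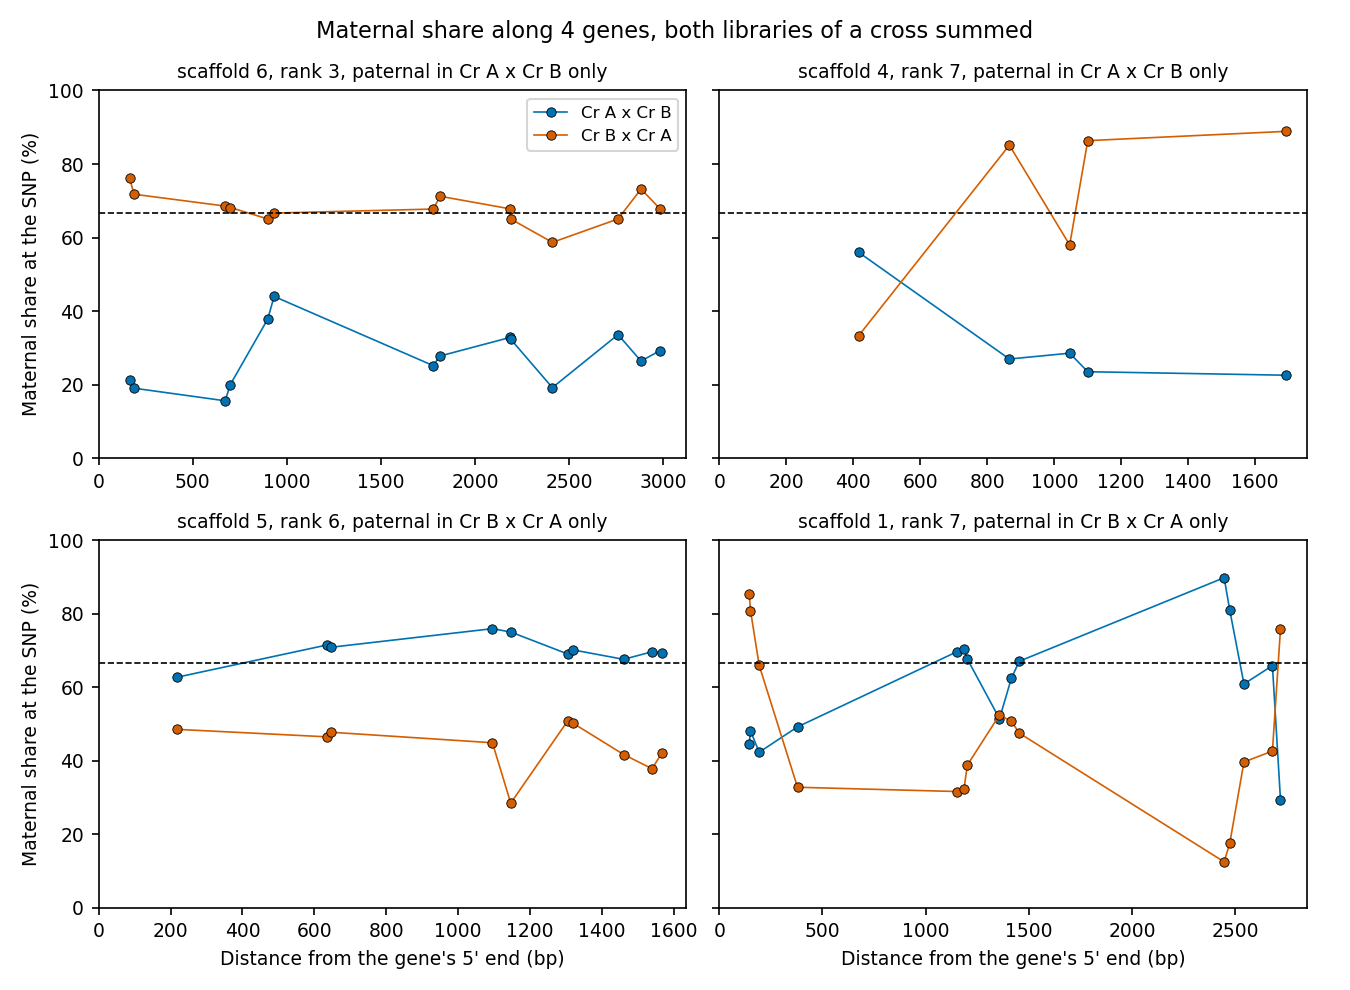
Maternal share (%) at each SNP with at least 20 reads in each cross, against the distance from the gene's 5′ end (bp), in 4 genes, with both libraries of a cross summed. Left, the genes with the most SNPs all in the direction of the gene, with 14 SNPs (upper) and 10 SNPs (lower), where the crosses stay apart. Right, the 2 genes with SNPs in the opposite direction, 1 of 5 (upper) and 5 of 15 (lower), where the lines cross.

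The genes lay on 8 scaffolds and made up 0.286% of all genes with enough reads. Scaffold 4 held 6 of the 20 (0.757% of its 793 genes with enough reads), scaffolds 5 and 6 held 4 each, scaffold 7 held 2, and scaffolds 1, 2, 3 and 8 held 1 each. The closest pair, the scaffold 4 genes of ranks 9 and 2, lay 206.9 kb apart. The median gene length was 2411 bp in the 13 and 2843 bp in the 7, against 2710.5 bp over all genes. The median number of SNPs was 4 and 11, against 3. Of their SNPs, 62 of 76 and 61 of 74 lay in listed exons.

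The 49 genes within 20 kb of the 13 had maternal shares with a median of 67.0% for Cr A x Cr B and of 72.5% in the reverse cross, near the 68.5% and 70.8% of all genes, and the 19 genes within 20 kb of the 7 had 62.8% and 75.2%. At most 50% in both libraries of the gene's paternal cross was reached by 5 of the 49 neighbours (10.2%), against 4.41% of all genes, and by none of the 19, against 3.06%. One lies 3078 bp from the scaffold 6 gene of rank 3, at 16406192 to 16408233 (plus strand), with maternal shares of 12.6% and 6.32% in Cr A x Cr B and 73.7% and 82.0% in Cr B x Cr A. It missed the rule only through the last value. Another lies 6042 bp from the scaffold 4 gene of rank 2, at 11060082 to 11062033 (plus strand), and was paternal in both crosses, at 29.9% and 19.8% and at 38.1% and 37.5%. One more, on the plus strand at 9128173 to 9132153, overlaps the minus-strand scaffold 4 gene of rank 12 and was singled out after its values were seen. It stood at 48.9% and 36.7% in Cr A x Cr B and 73.4% and 57.8% in Cr B x Cr A. Both SNPs of the rank 12 gene lie outside the overlap, but the counting is not stated to use strand, so reads from the overlapping genes cannot be told apart with certainty.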

How the data were processed

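Endosperm RNA of 4 libraries was analysed. Tools listed in the submitters' processing notes, in no stated role, are TopHat, Trimmomatic and Bowtie 1.0, and the allele calling was not given in the sources used here. The files deposited by the authors give, per library, counts of reads with each base at a set of SNPs. A further pair of tables, which GEO lists with the leaf DNA, hold per the file headers maternal and paternal read counts, a p-value per gene, and a fraction, the maternal ratio. Their counts equalled those of the matching labelled library at 99.9875% of sites or more. They gave the gene intervals and parental bases, and 7 of 71169 SNPs had no matching bases and were left out. Leaf DNA reads were not analysed here.

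Reads were summed per gene, library and allele, once at each SNP, so they are base observations and not molecules. RPM is reads per 1000000 allelic reads in genes. Total expression was compared with edgeR 4.0.16 (R 4.3.3), TMM and filterByExpr. The parental fit used maternal and paternal columns, an offset of 2 to 1 and terms for library, accession and parent, with 2 residual degrees of freedom, for genes with 20 reads in each cross. Adjusted p-values are Benjamini-Hochberg over all genes tested, with a threshold of 0.05. DESeq2 1.42.0 was an alternative. Both edgeR fits, total and parental, were tested on simulated data, and DESeq2 was not. Intervals are Clopper-Pearson (scipy 1.17.1). The genes and rules were chosen with earlier results of these data known. Genes given in full were the 8 with the largest difference among those with 50 reads in each library and the 3 with the most reads in each direction, or all where a direction had 12 or fewer. Gene and marker lists could not be matched to the unnamed intervals.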

Additional observations from a re-analysis of the deposited data

Results flagged for a closer look

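In 5 of the 20 genes both libraries of one cross lay below 2 maternal to 1 paternal and both of the other lay above it. The rule sets the position of the paternal cross, and the difference between the crosses was not tested. Among the genes paternal in Cr A x Cr B they are the scaffold 7 gene at 6970504 to 6977030, the scaffold 6 gene at 6852819 to 6854128 and the scaffold 6 gene at 15578402 to 15581731, with differences of 43.4, 39.2 and 26.9 points. Among those paternal in Cr B x Cr A they are the scaffold 2 gene at 2768161 to 2770410 and the scaffold 5 gene at 6304349 to 6307622, with 34.9 and 25.2 points. No share over all genes is given beside this count. The median maternal share per gene was itself above 66.7% in each library, at 67.8% to 72.2%. Not every interval cleared 66.7%. In the scaffold 7 gene those of Cr B x Cr A were 62.3% to 75.3% and 63.4% to 75.1%.

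Reads at 3 SNPs outside the listed genes but within 2 kb of one of the 20 entered no comparison. Beside the scaffold 4 gene at 9130629 to 9132483, 26 bp past its 5′ end, the maternal share over the 4 libraries was 57.3%. Library by library it was 16.7% and 35.7% in Cr A x Cr B and 100% and 80% in the reverse cross, where the first value rests on 7 reads. Beside the scaffold 1 gene at 15987446 to 15990288, SNPs 1826 and 1947 bp past its 5′ end gave 10.1% and 9.84%. There the maternal copy was the minor one in all 4 libraries, at most 18.9% at the nearer SNP and 12.8% at the farther one, with only 3 and 7 reads in replicate 1 of Cr B x Cr A, while the gene itself was paternal in Cr B x Cr A only.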

How the results depend on the processing

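The count of 13 and 7 genes rests on the bounds and on asking the rule of all 4 libraries. An upper bound of 80% gave 24 and 19 genes, and a lower bound of 45% gave 11 and 4. Asked of 3 libraries, the rule gave 31 to 58 and 20 to 62 genes, each time including the 13 and the 7. A minimum of 50 reads gave 11 and 7 genes, and the deepest SNP alone gave 12 and 8, of which 9 and 4 were among the 13 and 7. For genes chosen on replicate 2 as paternal in Cr B x Cr A the median difference in replicate 1 was 14.9 points, against 4.70 the other way round. For total expression over all genes DESeq2 called 24, no filter on low counts 5 and the replicate block 5, against 0 by edgeR, which stayed at 0 with any library left out. No alternative called any of the 20 genes. The replicate numbers could not be shown to pair libraries: with only 2 numbers, deviations of same-numbered libraries correlated at 0.519 for total level and 1.49e-05 for maternal share. With the replicate block in the parental fit 194 genes were less maternal (14 of the 20) and 727 more maternal, against 147 (8 of the 20) and 492. Leaving out 1 library gave 98 to 134 less maternal genes, and 313 (without replicate 1 of Cr A x Cr B) to 416 more maternal genes. The Cr A allele was then higher in 207 to 344 genes, against 438, and the Cr B allele in 306 to 662, against 803. The counts were 207 (Cr A) and 418 (Cr B) without the first Cr A x Cr B library, 221 and 306 without the second, and 470 for Cr B without replicate 2 of Cr B x Cr A. The median log2 ratio of the Cr A allele was 0.030 with TMM factors in the 13 genes (0.08 without) and 0.16 at the deepest SNP in the 7 (0.31 over all SNPs). With the nearest gene on each side alone, the neighbours' medians in Cr B x Cr A were 70.1% and 72.3%. The intervals from the deepest SNP alone were added after the data were seen. The cause of these shifts was not tested. Depth limits the genes with few reads most: 1 of the 20 rests on as few as 23 reads in a library.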
